A study of Homo sapiens with 8 samples.

Results

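The Rab GTPases, the small switch proteins that steer vesicle traffic, were read as all probe sets whose only gene symbol in the array annotation is RAB, a number and at most 1 further letter. This rule used no measured value and gave 138 probe sets of 57 genes, among 54613 probe sets and 19775 genes with a single symbol in all. Of the 57 genes, 22 had 1 probe set and 35 had several, up to 7 for RAB7A. Because 41 of the 138 probe sets have names ending in s_at and 8 in x_at, marks of probes that can bind several transcripts, signal from close relatives cannot be told apart there. Probe sets with several symbols and the Rab-interacting proteins were not members.

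Each Rab marks its own set of membranes. Loaded with GTP by an exchange factor (GEF), a Rab recruits effectors such as motors, tethers and fusion factors to its membrane, and a GTPase-activating protein (GAP) turns it off again. Prenyl groups anchor it in the membrane, and GDP dissociation inhibitors return it to the cytosol. Plasma cells, the normal counterpart of myeloma cells, send large amounts of antibody along this route, and XBP1 is a transcription factor known for driving genes of their secretory pathway. Its active form arises when IRE1, a sensor of unfolded protein in the endoplasmic reticulum (ER) encoded by ERN1, splices the XBP1 mRNA.

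RNA came from 8 cultures of the established human myeloma lines JJN3 and RPMI-8226, 1 Affymetrix array for each line and treatment. The treatments were lentivirus with an shRNA against IRE1, lentivirus with an shRNA against XBP1, lentivirus with a non-targeting (NT) shRNA, and no infection. Infected cultures had virus for 16 h with 8 µg/mL polybrene, and harvest was at 96 h. The labels describe 1 culture per line and treatment, so the lines are the replicates (n = 2 per treatment), and the p-values measure the spread between these arrays only. Values are log2 signals centred on the median of the 8 arrays. They hold no expression level, which is why no marker of plasma cells could be checked and no level is compared between genes. In bulk RNA, fewer cells of a type and less RNA per cell cannot be told apart. An adjusted p under 0.05, from limma with the Benjamini-Hochberg method over all 54613 probe sets, is the threshold behind "rose" and "fell".

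The targets of the shRNAs were each read on 1 probe set. XBP1 stood at -0.02 with XBP1 shRNA against 1.11 with NT shRNA in JJN3, and at -0.58 against 0.02 in RPMI-8226. The difference was -0.87 ± 0.38 (SE, n = 2 lines, adjusted p = 0.358). ERN1 stood at -1.24 with IRE1 shRNA against -0.35 with NT shRNA in JJN3. In RPMI-8226 it was higher on the array labelled IRE1 shRNA, at 2.11, than on the NT array, at 1.73, and the difference over both lines was -0.26 ± 0.32 (SE, adjusted p = 0.894). Each shRNA was also read on the other's target. ERN1 differed by -1.33 ± 0.32 with XBP1 shRNA (SE, adjusted p = 0.0926; -1.22 in JJN3 and -1.45 in RPMI-8226), and XBP1 by -1.60 ± 0.38 with IRE1 shRNA (SE, adjusted p = 0.212; -2.58 and -0.63). On these probe sets the difference of each target was thus more negative with the shRNA against the other gene than with its own. No difference of a target passed, so at this threshold neither shRNA label is borne out by its own target alone. In sign, XBP1 was lower with XBP1 shRNA than with NT shRNA in both lines. ERN1 was lower with IRE1 shRNA in JJN3 only. Every XBP1 or IRE1 shRNA value below is that of the arrays so labelled. The poly-A controls added to the RNA (24 probe sets) had medians of 0.19 and 0.43 on the JJN3 and RPMI-8226 arrays with XBP1 shRNA, against -0.05 and 0.25 with NT shRNA. Their part in the XBP1 shRNA differences was not tested.

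Over the 8 arrays, 68 of the 138 Rab probe sets (49.3%) spanned at least 2-fold, against 33.9% of all probe sets. Most of this span lay between the lines. Within JJN3 11 Rab probe sets (7.97%) and within RPMI-8226 12 (8.70%) spanned 2-fold, against 5.74% and 4.72% of all probe sets. The median span was 0.99 for Rab probe sets and 0.77 for all, and the single widest was 6.42, for RAB31.

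With XBP1 shRNA, RAB2A rose and RAB5A fell relative to NT shRNA, each on a pair of probe sets and in both lines. RAB2A acts in traffic between the ER and the Golgi, and RAB5A is the switch of early endosome fusion. Of the 138 Rab probe sets 2 rose, against a background of 0.527% among all probe sets, and 2 fell, against 0.681%. In either direction this was 4 of 138 (2.90%), with a background of 1.21%. At an unadjusted p under 0.05 there were 31 Rab probe sets (22.5%), against 13.7% of all.

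On RAB2A 208734_x_at the XBP1 shRNA arrays held 0.91 in JJN3 and -0.02 in RPMI-8226, against 0.02 and -1.20 with NT shRNA. The IRE1 shRNA arrays held 0.32 and -0.87, and the uninfected arrays 0.47 and -0.98. Within each line the XBP1 shRNA array was the highest of the 4. The difference from NT shRNA was 1.03 ± 0.16 (SE, n = 2 lines), a ratio of 2.04 (adjusted p = 0.0280). RAB2A 221960_s_at had the same order, with 1.0 and -0.11 with XBP1 shRNA against 0.11 and -1.26 with NT shRNA, 0.45 and -0.55 with IRE1 shRNA and 0.64 and -0.93 uninfected. Its difference was 1.02 ± 0.17 (SE, n = 2 lines, adjusted p = 0.0338). RAB2A has 6 probe sets, and the other 4 did not pass: 208731_at differed by 0.75 (adjusted p = 0.0537), 208732_at by 0.69 (0.0941), 208730_x_at by 0.07 and 208733_at by 0.02. Against uninfected in place of NT cells the RAB2A differences were smaller, 0.70 for 208734_x_at (adjusted p = 0.0641) and 0.59 for 221960_s_at (adjusted p = 0.129).

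On RAB5A 209089_at the XBP1 shRNA arrays held -0.85 in JJN3 and -0.57 in RPMI-8226, against 0.03 and 0.21 with NT shRNA. The IRE1 shRNA arrays held -0.02 and 0.12, and the uninfected arrays -0.04 and 0.02. Both XBP1 shRNA arrays lay below the other 6, and the lines differed by -0.16 on this probe set (adjusted p = 0.184). The difference from NT shRNA was -0.83 ± 0.14 (SE, n = 2 lines), a ratio of 0.564 (adjusted p = 0.0346). On 206113_s_at the XBP1 shRNA arrays held -0.45 and -0.26, against 0.29 and 0.59 with NT shRNA, and the difference was -0.80 ± 0.15 (SE, n = 2 lines, adjusted p = 0.0475). The uninfected arrays held 0.01 and -0.01 there and the IRE1 shRNA arrays -0.20 and 0.18, so the NT arrays were the highest of each line. The third probe set of RAB5A, 240990_at, differed by -0.04 (adjusted p = 0.954).

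These 4 calls are near the threshold. Over all probe sets 660 passed, 0 with the line taken out of the model and 345 after a second quantile normalisation. None of the 4 Rab calls is left with the line taken out (0 called, 4 at an unadjusted p under 0.05) or after that normalisation (0 called). The count was 0 without the JJN3 or the RPMI-8226 array of NT shRNA, without either array of IRE1 shRNA and without the RPMI-8226 array of XBP1 shRNA. It was 1 without the JJN3 array of XBP1 shRNA (RAB2A 208734_x_at) and 2 without either uninfected array (both RAB2A probe sets). With uninfected cells as the control 1151 of all 54613 probe sets passed. Among them were 6 Rab probe sets, 3 higher and 3 lower. Of the 4 calls only RAB5A 209089_at was among them, and the other 5 were on RAB14 (200927_s_at and 211503_s_at) and RAB4A (203582_s_at), higher, and on RAB39B (238695_s_at) and RAB8B (222846_at), lower.

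**Figure D1:**
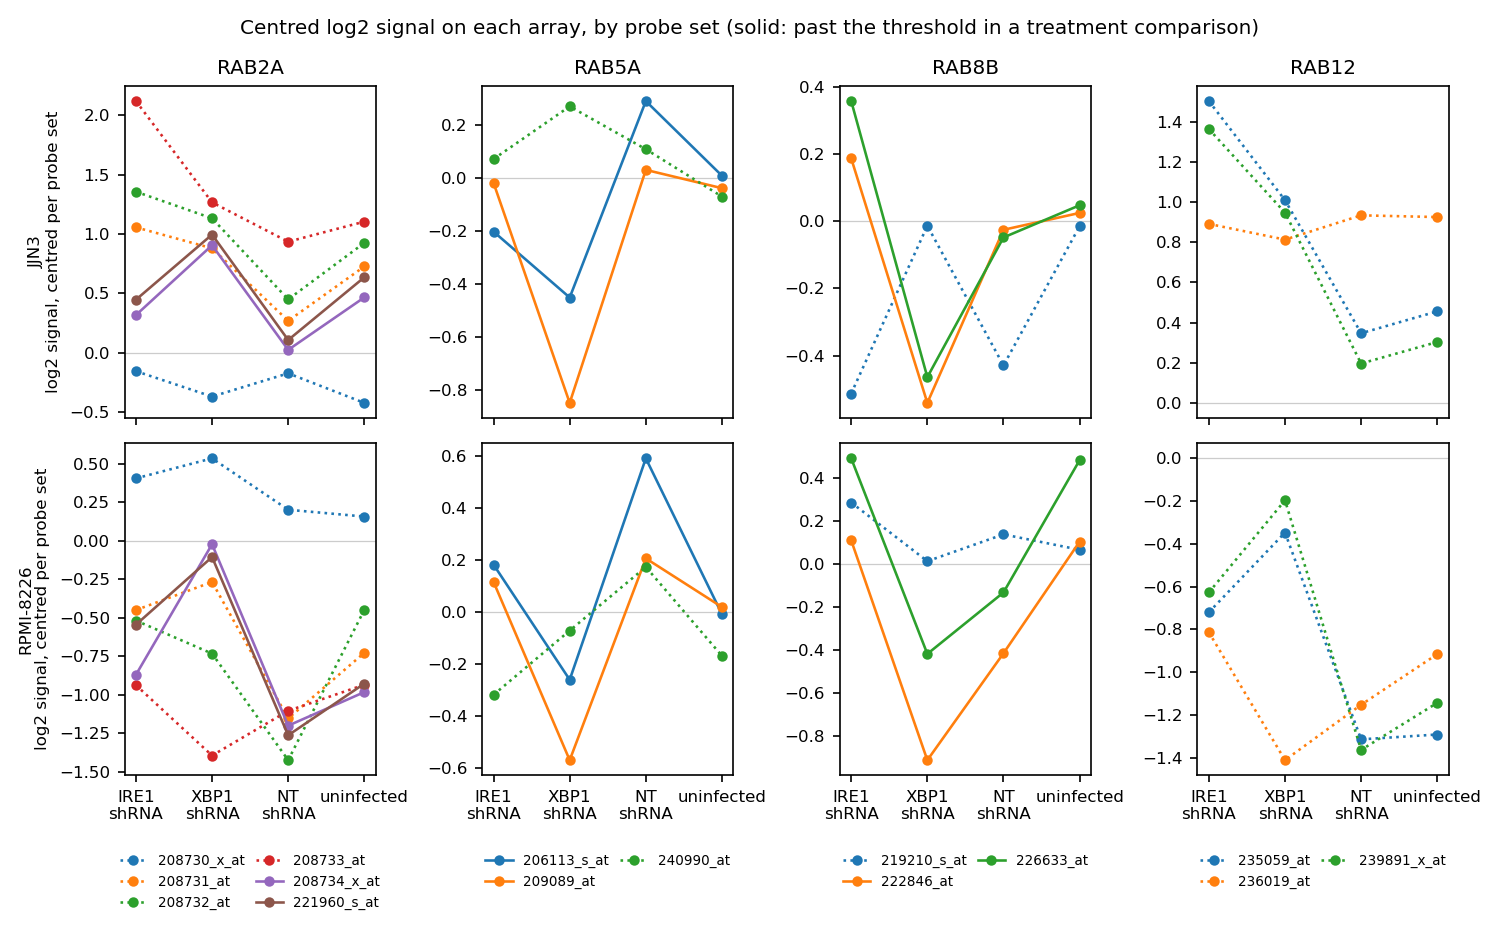
Centred log2 signal (vertical axis, scaled to each panel) of RAB2A, RAB5A, RAB8B and RAB12 on the 4 arrays of JJN3 (upper row) and of RPMI-8226 (lower row), 1 line per probe set. Solid lines are probe sets past the threshold in a comparison of treatments; each point is 1 array, so there are no error bars. RAB5A 209089_at is lowest with XBP1 shRNA in both lines, at -0.85 and -0.57.

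No other Rab probe set passed in this comparison. Probe sets of RAB12, which acts between recycling endosomes and lysosomes, came close. RAB12 239891_x_at held 0.95 in JJN3 and -0.20 in RPMI-8226 with XBP1 shRNA, against 0.20 and -1.36 with NT shRNA, a difference of 0.96 ± 0.20 (SE, adjusted p = 0.0571). RAB12 235059_at differed by 0.81 ± 0.20 (SE, adjusted p = 0.0927), and the third RAB12 probe set, 236019_at, by -0.19. Among Rab probe sets with the same sign in both lines, the lowest difference was that of RAB39B, a Golgi-associated Rab known chiefly from neurons. It was -1.33 ± 0.33 on 238695_s_at (SE, adjusted p = 0.0978), and -0.73 on 230075_at. RAB39B 238695_s_at is also low on the NT arrays relative to uninfected ones. It held -0.98 and -1.01 with XBP1 shRNA, 0.63 and 0.03 with NT shRNA and 1.06 and 1.74 in uninfected JJN3 and RPMI-8226. Against uninfected cells its difference with XBP1 shRNA was -2.40 and passed (adjusted p = 0.0159; the range over its alternatives was 0.0159 to 1).

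By role, the 34 probe sets of ER, Golgi and ER-Golgi Rabs held the 2 that rose, with a median difference of 0.06, and the 18 of early endosome Rabs held the 2 that fell, with a median of -0.02. None of the 30 secretory, 19 recycling, 22 late endosomal and lysosomal or 15 other probe sets passed, and the median over all probe sets was 0.00. The Rabs that carry cargo from ER to Golgi besides RAB2A did not pass. RAB1A differed by -0.36 to 0.08 on 4 probe sets and RAB1B by 0.25. RAB6A, of the Golgi, differed by -0.04 on its only member probe set. The Rabs of secretory granules did not pass either: RAB3D differed by -0.04 and 0.06, RAB27A by -0.41 to 0.22 on 5 probe sets and RAB27B by -0.06 to 0.03 on 3. RAB7A, of late endosomes, differed by -0.20 to 0.43 on 7 probe sets, and RAB11A, of recycling endosomes, by -0.42 to 0.33 on 3.

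Among the proteins that act on Rabs, 5 of 287 probe sets passed with XBP1 shRNA (1.74%), a share near the 1.21% of all probe sets. EEA1, the tether that binds active RAB5 on early endosomes, rose by 1.69 on 204841_s_at (adjusted p = 0.0069), while its other probe sets 225885_at and 204840_s_at differed by 0.73 (adjusted p = 0.170) and 0.25. RPGR, a protein of the cilium base reported to act as an exchange factor of RAB8A, rose by 1.23 on its only probe set. RILPL2, an effector of RAB8 and related Rabs, rose by 0.76. The GAP family members TBC1D16 and TBC1D15 fell by 1.54 on 222116_s_at and by 0.80 on 230072_at, and the other 4 probe sets of TBC1D16 (-0.60 to -0.10) and the other of TBC1D15 (-0.11) did not pass. In all 1 of 76 exchange factor probe sets rose and 0 fell, 0 of 72 GAP probe sets rose and 2 fell, 2 of 126 effector and tether probe sets rose and 0 fell, and none of the 13 for prenylation and recycling passed, where 0.527% of all probe sets rose and 0.681% fell.

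With IRE1 shRNA no Rab probe set passed against NT shRNA, where 10 of all probe sets did (a background of 0.0183%). At an unadjusted p under 0.05 there were 22 Rab probe sets (15.9%), against 9.47% of all. Among Rab probe sets with the same sign in both lines, the largest positive differences belonged to RAB12 and RAB2A. This comparison and that of XBP1 shRNA share the NT arrays. RAB12 239891_x_at held 1.36 in JJN3 and -0.63 in RPMI-8226 with IRE1 shRNA, against 0.20 and -1.36 with NT shRNA, a difference of 0.95 ± 0.20 (SE, adjusted p = 0.186). RAB12 235059_at held 1.50 and -0.72, against 0.35 and -1.31, a difference of 0.88 ± 0.20 (SE, adjusted p = 0.198). On both probe sets, in each line, the shRNA arrays against IRE1 and XBP1 lay above the NT and uninfected arrays. Both were picked for their large differences, and the share of all probe sets with this order was not taken. RAB12 236019_at, at 0.15 (adjusted p = 0.871), did not show this order.

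RAB2A 208732_at held 1.36 and -0.52 with IRE1 shRNA, against 0.45 and -1.42 with NT shRNA, a difference of 0.91 ± 0.17 (SE, adjusted p = 0.148). RAB2A 208731_at differed by 0.75 ± 0.15 (adjusted p = 0.172), while 208734_x_at and 221960_s_at, which rose with XBP1 shRNA, differed by 0.31 and 0.53. On 208732_at the uninfected arrays, 0.93 and -0.45, were also above the NT arrays. The largest negative differences that ran the same way in both lines were -0.87 for RAB39B 238695_s_at (-1.70 in JJN3 and -0.05 in RPMI-8226), -0.61 for RAB33A, a Golgi Rab, -0.60 for RAB7A 211960_s_at and -0.53 for RAB32 228161_at, a Rab of melanosomes and related organelles. Their adjusted p ran from 0.385 to 0.451. RAB5A differed by -0.07 on 209089_at, -0.45 on 206113_s_at and -0.26 on 240990_at. RAB1A differed by -0.35 to 0.11, RAB1B by 0.08, RAB6A by -0.05, RAB3D by -0.33 and -0.14, RAB27A by -0.40 to 0.37, RAB27B by 0.06 to 0.17, the other 6 probe sets of RAB7A by -0.43 to 0.04 and RAB11A by -0.09 to 0.47. No exchange factor, GAP, effector or prenylation probe set passed (0 of 76, 72, 126 and 13).

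**Figure D2:**
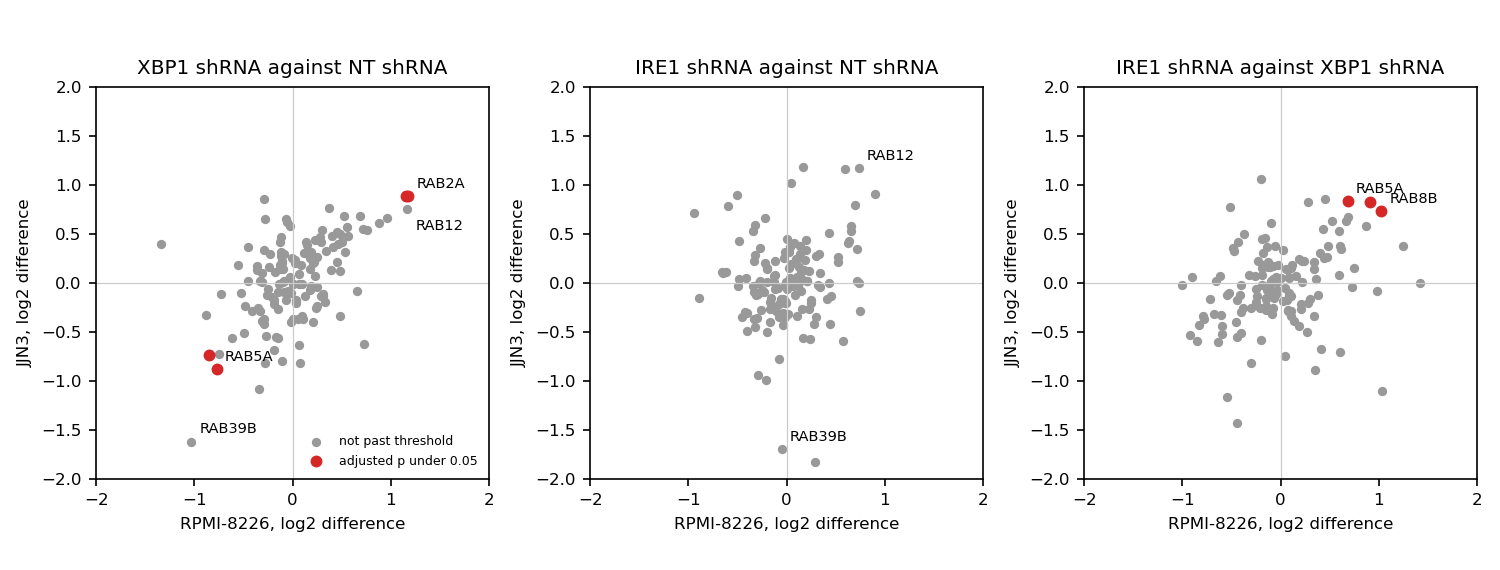
Log2 difference of each of the 138 Rab probe sets in RPMI-8226 (horizontal axis) and in JJN3 (vertical axis) with XBP1 shRNA and then IRE1 shRNA against NT shRNA, and with IRE1 shRNA against XBP1 shRNA. Red points passed the threshold: 4, 0 and 3 probe sets. Each axis rests on 1 array pair.

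The arrays labelled IRE1 and XBP1 shRNA were also set against each other. RAB8B, which carries vesicles to the plasma membrane, was higher with IRE1 shRNA on a pair of probe sets, and so was RAB5A on 1. Of the 138 Rab probe sets 3 were higher, against a background of 0.908%, and 0 were lower, against 0.987%. In either direction the background was 1.90%. At an unadjusted p under 0.05 there were 38 (27.5%), against 13.7% of all probe sets.

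RAB8B 222846_at held 0.19 in JJN3 and 0.11 in RPMI-8226 with IRE1 shRNA, against -0.54 and -0.91 with XBP1 shRNA. The NT arrays held -0.03 and -0.42 and the uninfected arrays 0.03 and 0.10. The IRE1 shRNA array was the highest and the XBP1 shRNA array the lowest of each line, and the difference was 0.88 ± 0.16 (SE, n = 2 lines, adjusted p = 0.0354), a ratio of 1.84. RAB8B 226633_at held 0.36 and 0.49 with IRE1 shRNA, against -0.46 and -0.42 with XBP1 shRNA, -0.05 and -0.13 with NT shRNA and 0.05 and 0.48 uninfected. Its difference was 0.87 ± 0.16 (SE, n = 2 lines, adjusted p = 0.0353). The third, 219210_s_at, differed by -0.11 (adjusted p = 0.905). Against NT shRNA neither shRNA passed for RAB8B: 222846_at differed by 0.37 with IRE1 shRNA (adjusted p = 0.529) and -0.51 with XBP1 shRNA (adjusted p = 0.196), and 226633_at by 0.52 (adjusted p = 0.328) and -0.35 (adjusted p = 0.388). RAB8A, its closest relative, differed by 0.68 ± 0.14 between IRE1 and XBP1 shRNA (SE, adjusted p = 0.0507).

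RAB5A 209089_at, whose values by array are given above, was higher with IRE1 than with XBP1 shRNA by 0.76 ± 0.14 (SE, n = 2 lines, adjusted p = 0.0335). This comparison and that of XBP1 with NT shRNA share the XBP1 shRNA arrays. RAB5A 206113_s_at differed by 0.35 (adjusted p = 0.360) and 240990_at by -0.22. Over all probe sets 1035 passed, 0 with the line taken out of the model and 452 after a second quantile normalisation. All 3 calls were lost with the line taken out of the model (0 called; 10 at an unadjusted p under 0.05), after a second quantile normalisation (0 called), and without the JJN3 array of IRE1 shRNA, either NT array or either XBP1 shRNA array (0 called each). They were also lost without the RPMI-8226 array of IRE1 shRNA, where the 1 Rab probe set that passed was another one, RAB7A 211960_s_at, and lower. Without either uninfected array 2 were left, those of RAB8B.

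The promoters of RAB5A and RAB8B, the genes whose probe sets separated the XBP1 shRNA arrays from the IRE1 shRNA arrays, and of RAB31, the gene with the widest span between the lines, are shown for orientation. The sequences are from RefSeq (GRCh38.p14, plus strand in all 3) and are windows of 300 bases across the start of the gene. RAB5A lies at chr3:19946847-19947146, RAB8B at chr15:63189356-63189655 and RAB31 at chr18:9708051-9708350. Capitals mark the letters CCACGT on either strand. Of these, CCACG ends the ER stress elements that XBP1 is known to bind, and the T is not part of those elements.
RAB5A: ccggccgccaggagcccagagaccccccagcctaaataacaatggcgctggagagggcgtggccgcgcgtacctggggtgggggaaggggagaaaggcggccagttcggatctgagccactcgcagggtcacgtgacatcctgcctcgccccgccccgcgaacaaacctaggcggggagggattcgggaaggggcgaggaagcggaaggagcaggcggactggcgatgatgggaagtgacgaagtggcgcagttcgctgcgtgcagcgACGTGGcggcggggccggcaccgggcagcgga
RAB8B: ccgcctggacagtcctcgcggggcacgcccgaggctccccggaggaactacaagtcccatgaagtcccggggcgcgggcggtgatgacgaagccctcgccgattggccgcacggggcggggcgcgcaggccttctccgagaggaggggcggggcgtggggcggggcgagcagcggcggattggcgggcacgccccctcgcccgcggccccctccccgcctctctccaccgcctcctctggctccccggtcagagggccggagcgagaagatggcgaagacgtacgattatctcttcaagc
RAB31: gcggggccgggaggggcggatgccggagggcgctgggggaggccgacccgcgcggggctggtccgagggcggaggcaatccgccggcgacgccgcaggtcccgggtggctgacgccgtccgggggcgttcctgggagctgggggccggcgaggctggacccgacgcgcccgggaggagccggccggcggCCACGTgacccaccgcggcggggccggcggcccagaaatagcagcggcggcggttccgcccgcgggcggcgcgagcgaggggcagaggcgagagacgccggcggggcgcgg

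In RAB5A the match is on the reverse strand, where it starts 18 bases after the gene's start, and in RAB31 it starts 61 bases before it. RAB8B has none. Windows were found for 45 of the 57 genes (64 windows), and not for RAB1A, RAB2A, RAB12, RAB15, RAB20, RAB26, RAB33A, RAB33B, RAB36, RAB37, RAB38 and RAB39B. On both strands, CCACGT was in 9 of the 64 (14.1%), against 3414 of 35116 windows of all genes (9.72%). The longer XBP1 motifs were in none of the 64: TGACGTGG, which holds CCACGT on its reverse strand, was in 0.729% of all windows, the ER stress element ERSE in 0.0769% and ERSE-II in 0.0541%. These are matches of letters, not sites of binding.

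Several other Rab genes had large differences between IRE1 and XBP1 shRNA that did not pass. RAB7A 211960_s_at differed by -0.94 ± 0.23 (SE, adjusted p = 0.0808) and 211961_s_at by -0.86 ± 0.20 (SE, adjusted p = 0.0699). Both rest largely on the JJN3 array of IRE1 shRNA, which held -1.04 and -0.90 and lay below the other 7 arrays; in RPMI-8226 the IRE1 shRNA array held -0.12 and -0.10. That array also had the highest median of the 18 hybridisation control probe sets, 0.42, against -0.15 to 0.09 on the others. Their part was not tested. Without the RPMI-8226 array of IRE1 shRNA, 211960_s_at passed (adjusted p = 0.0426, over a range of 0.0426 to 1). The other 5 RAB7A probe sets differed by -0.63 to 0.04. RAB14, which acts between Golgi and endosomes, differed by -0.73 on 211503_s_at (adjusted p = 0.0692), -0.32 on 200927_s_at and 0.49 on 200928_s_at. RAB11A differed by 0.81 on 234998_at (adjusted p = 0.147), 0.35 on 200864_s_at and -0.43 on 200863_s_at, and RAB2A 208734_x_at by -0.72 (adjusted p = 0.0625), with its other probe sets between -0.49 and 0.66.

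RAB27A, which docks secretory granules, showed how far probe sets of a gene can part. Its probe sets 210951_x_at and 209514_s_at differed by -0.62 and -0.52 between IRE1 and XBP1 shRNA, and 235766_x_at, 222294_s_at and 209515_s_at by 0.73, 0.65 and 0.56, none of them past the threshold (adjusted p 0.0697 to 0.160). Of the 35 Rab genes with several probe sets, 22 (62.9%) had both signs in this comparison, against 55.9% of the 10523 genes with several probe sets. With XBP1 against NT shRNA it was 25 (71.4%), against 55.6%. Other Rabs of the secretory route differed by -0.35 to 0.15 (RAB1A), -0.17 (RAB1B), -0.01 (RAB6A), -0.39 and -0.10 (RAB3D) and 0.03 to 0.23 (RAB27B).

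**Figure D3:**
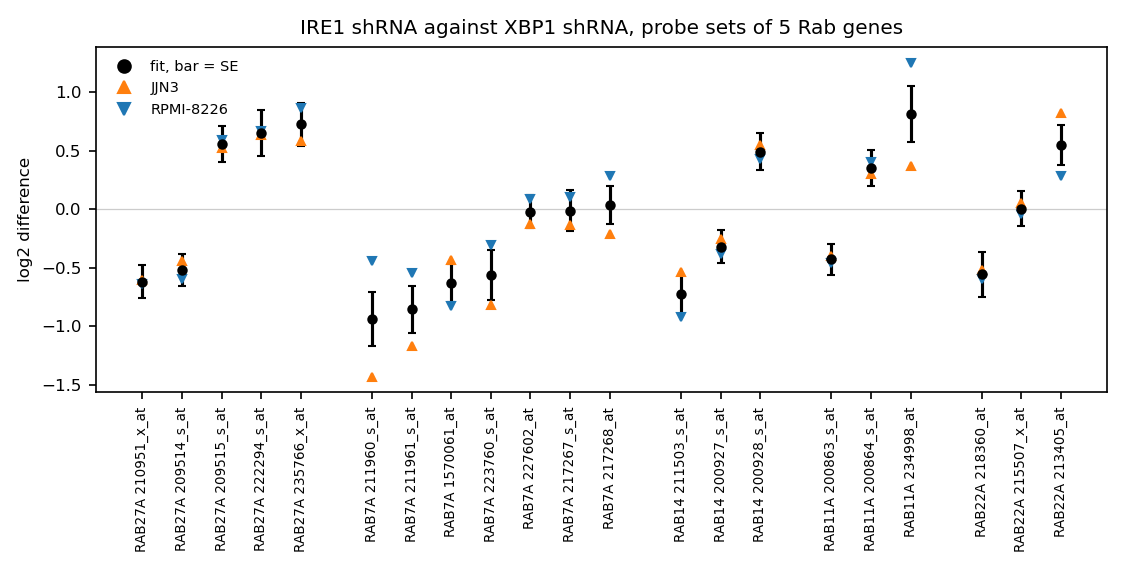
Log2 difference of IRE1 shRNA against XBP1 shRNA (vertical axis) for each probe set of RAB27A, RAB7A, RAB14, RAB11A and RAB22A. Black points are the fitted difference with its SE, and triangles are the single lines. The probe sets of RAB27A lie on both sides of 0, from -0.62 to 0.73.

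In the same comparison 6 of the 287 probe sets of the proteins that act on Rabs passed (2.09%), close to the 1.90% of all probe sets. DENND1A, an exchange factor of RAB35, was lower with IRE1 than with XBP1 shRNA by 1.69 on 219763_at (adjusted p = 0.0145). Its 226849_at differed by 0.52 (adjusted p = 0.162). Lower too were EEA1 204841_s_at by 1.37, RPGR by 1.17 and TBC1D7 223461_at by 0.94. MYO5A, the myosin that RAB27A reaches through melanophilin, was higher by 1.14 on 227761_at, and TBC1D15 230072_at by 0.83. None of these 6 passed in IRE1 against NT shRNA. There DENND1A differed by -0.94, EEA1 by 0.32, RPGR by 0.05, TBC1D7 by -0.34, MYO5A by 0.30 and TBC1D15 by 0.03. EEA1, RPGR and TBC1D15 passed with the opposite sign in XBP1 against NT shRNA, which shares the XBP1 shRNA arrays. Other probe sets of these genes did not pass between IRE1 and XBP1 shRNA. EEA1 differed by -0.01 on 225885_at and -0.15 on 204840_s_at, and TBC1D7 by 0.04 on 1563839_at. MYO5A differed by 0.13 to 0.76 on its others, and TBC1D15 by -0.32 on 218268_at. The counts were 0 higher and 2 lower of 76 for exchange factors, 1 and 1 of 72 for GAPs, and 1 and 1 of 126 for effectors, with 0.908% of all probe sets higher and 0.987% lower.

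Lentivirus with NT shRNA was set against no infection to show the response to the virus. No probe set passed, Rab (0 of 138) or other (0 of 54613, a background of 0%). At an unadjusted p under 0.05 in limma there were 11 Rab probe sets (7.97%) and 3044 in all (5.57%). Only Rab probe sets with the same sign in both lines were ranked here. The largest negative differences were those of RAB39B, -1.07 on 238695_s_at and -0.97 on 230075_at, RAB36, an endosome and Golgi Rab, at -0.76, and RAB2A 208732_at at -0.73. The largest positive were 0.56 for RAB23 220955_x_at, a Rab of Hedgehog signalling, 0.44 for RAB5A 206113_s_at, 0.35 for RAB22A 218360_at, an endosomal Rab, and 0.33 for RAB32 228161_at. All 8 had an adjusted p between 0.873 and 0.882. These differences of RAB2A and RAB5A have the sign opposite to those with XBP1 shRNA, and both comparisons share the NT arrays. RAB1A differed by -0.03 to 0.33, RAB1B by 0.04, RAB6A by 0.09, RAB3D by 0.03 and 0.07, RAB27A by -0.52 to 0.21, RAB27B by -0.15 to 0.12, RAB7A by -0.15 to 0.20 and RAB11A by -0.40 to 0.18.

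The design also sets the 4 arrays with an shRNA against IRE1 or XBP1 against the 4 with NT shRNA or no infection. These sets are called silenced and control by label only. Within a line the IRE1 and XBP1 shRNA arrays stand as replicates, as do the NT and uninfected arrays. The SE (n = 4 arrays per set) thus also holds the differences between those treatments. No probe set passed, Rab (0 of 138) or other (0 of 54613, a background of 0%), and at an unadjusted p under 0.05 in limma there were 20 Rab probe sets (14.5%) and 5080 in all (9.30%). Again only Rab probe sets with the same sign in both lines were ranked. RAB39B had the lowest differences, -1.64 ± 0.35 on 238695_s_at (SE, adjusted p = 0.191) and -1.24 ± 0.38 on 230075_at (SE, adjusted p = 0.334). On 238695_s_at the silenced arrays held -1.07 and -0.98 in JJN3 and -0.03 and -1.01 in RPMI-8226 (IRE1, then XBP1 shRNA). The controls held 0.63 and 1.06 in JJN3 and 0.03 and 1.74 in RPMI-8226 (NT, then uninfected). Within each line the groups did not overlap, though in RPMI-8226 the IRE1 and NT arrays were close. This probe set was picked as the lowest, and the share of all probe sets without such overlap was not taken. Both RAB39B probe sets were on average at least 2-fold lower in each line, which held for 2 of the 138 and for 0.0385% of all probe sets. RAB12 had the highest differences, 0.87 ± 0.13 on 239891_x_at and 0.81 ± 0.13 on 235059_at (adjusted p = 0.149 each). RAB2A followed with 0.56 on 221960_s_at and 0.53 on 208731_at, and RAB33A (-0.60) and RAB36 (-0.50) followed RAB39B on the negative side. RAB5A differed by -0.40 to -0.02, RAB1A by -0.20 to 0.08, RAB1B by 0.19, RAB6A by 0.00, RAB3D by -0.12 and -0.05, RAB27A by -0.23 to 0.00, RAB27B by 0.02 to 0.10, RAB7A by -0.18 to 0.19 and RAB11A by -0.21 to 0.23.

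The lines differed far more than the treatments. JJN3 was higher than RPMI-8226 on 34 of the 138 Rab probe sets (24.6%, against a background of 22.8%) and lower on 47 (34.1%, against 33.3%), shares near those of all probe sets. In either direction this was 81 (58.7%), against 56.0%. At least 2-fold, 20 were higher (14.5%, against 10.1%) and 10 lower (7.25%, against 4.69%). On 31 probe sets all 4 JJN3 arrays lay above all 4 of RPMI-8226 (22.5%, against 18.9% of all) and on 40 below (29.0%, against 29.8%). Each line gave 1 set of cultures, so the line and anything else that differed between the sets cannot be told apart. The gap between the 3′ and 5′ probe sets of actin, which tracks how intact the RNA is, was 0.13 to 0.42 in JJN3 and -0.61 to -0.43 in RPMI-8226. That of GAPDH was 0.004 to 0.046 in JJN3 and -0.083 to 0.062 in RPMI-8226. Both are from centred values, so they compare arrays only. Their part was not tested.

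RAB31, which acts between the trans-Golgi network and endosomes, had the largest difference. On 217764_s_at JJN3 held 3.18, 2.55, 3.35 and 3.15 with IRE1, XBP1 and NT shRNA and uninfected, against -2.55, -3.07, -2.96 and -2.59 in RPMI-8226. All JJN3 arrays lay above 0 and all RPMI-8226 arrays below it, and the difference was 5.85 ± 0.13 (SE, n = 4 arrays per line, adjusted p = 3.70e-09). The other RAB31 probe sets gave 4.73 (217762_s_at) and 4.33 (217763_s_at). RAB38, of melanosomes and related organelles, held 1.55 to 1.89 in JJN3 against -2.16 to -1.55 in RPMI-8226, a difference of 3.61 ± 0.15 (SE, n = 4 arrays per line, adjusted p = 1.26e-07). Its close relative RAB32 was higher by 2.09 on 204214_s_at, but 228161_at differed by 0.29 (adjusted p = 0.0823).

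RAB36 had the largest difference in the other direction. JJN3 held -2.06, -2.07, -2.47 and -1.05 with IRE1, XBP1 and NT shRNA and uninfected, against 2.47, 1.05, 2.39 and 2.50 in RPMI-8226. The lines did not overlap, and the difference was -4.02 ± 0.25 (SE, n = 4 arrays per line, adjusted p = 1.86e-06). Its single probe set, 211471_s_at, left no second reading of the gene.

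RAB3D, RAB27A and RAB27B, of secretory granules, were lower in JJN3 wherever they passed. On 225001_at, not its only probe set, RAB3D held -1.19 to -0.61 in JJN3 against 0.61 to 1.04 in RPMI-8226. The difference there was -1.75 ± 0.12 (SE, adjusted p = 3.30e-06). RAB27A differed by -1.42 on 210951_x_at and -1.41 on 209514_s_at, but by -0.15, 0.25 and 0.26 on its other 3 probe sets, none of which passed. RAB27B 207017_at was lower (-0.52), and its other probe sets (-0.25 and 0.24) did not pass. Over the 30 probe sets of all secretory Rabs, 1 was higher (3.33%, against 22.8% of all probe sets) and 9 were lower (30.0%, against 33.3%), so the share lower was near that of all probe sets. Their median was -0.16, while that of all probe sets was -0.14.

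**Figure D4:**
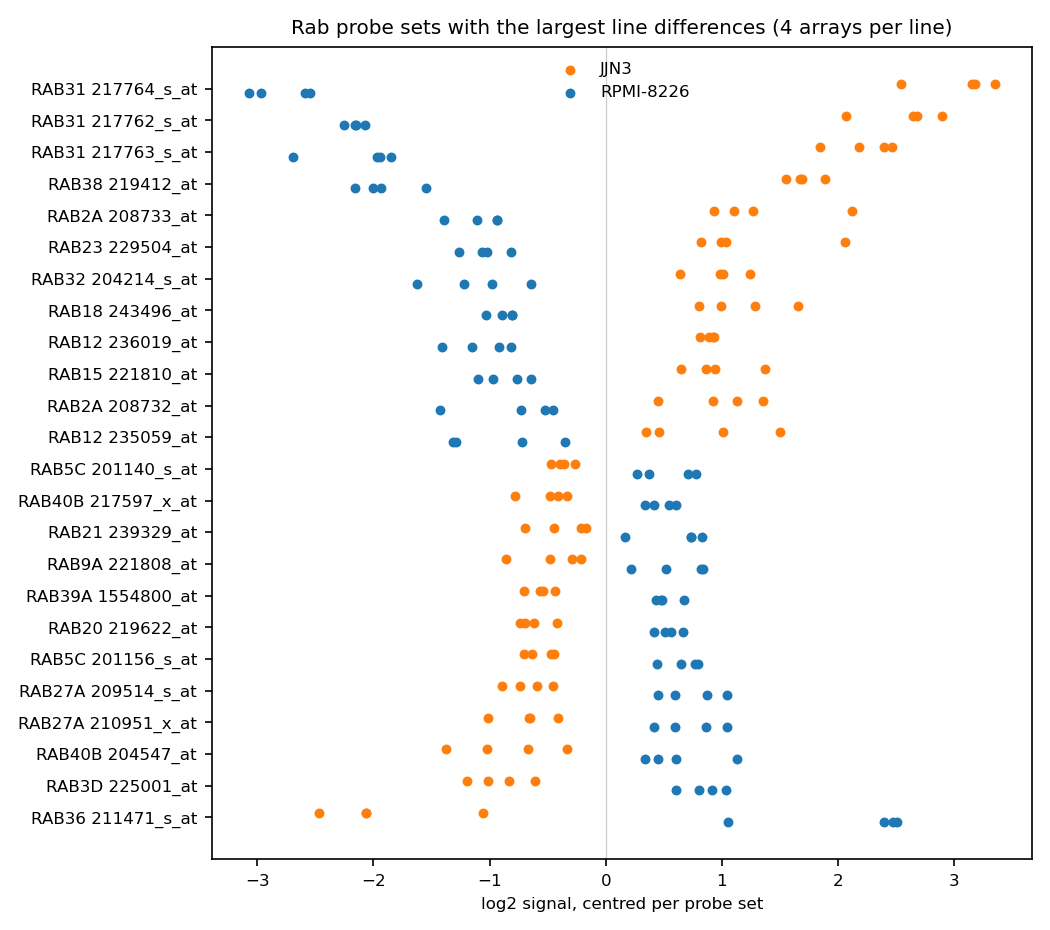
Centred log2 signal (horizontal axis) on the 4 JJN3 and the 4 RPMI-8226 arrays for 24 Rab probe sets, the 12 highest and 12 lowest by the difference between the lines. Each point is 1 array. The 24 were picked by this difference, and the lines do not overlap on any of them. Among all probe sets the 4 JJN3 arrays lay above all 4 of RPMI-8226 on 18.9% and below on 29.8%. RAB31 217764_s_at parts the lines most, by 5.85.

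Endosomal Rabs went both ways. The early endosome probe sets that passed were lower in JJN3, apart from those of RAB31 and RAB22A 213405_at (1.16). RAB5C differed by -1.23 on 201156_s_at and -0.90 on 201140_s_at, RAB20, of endosomes and phagosomes, by -1.15 on 219622_at, and RAB21, of integrin uptake, by -1.0 on 239329_at. RAB5A did not pass on any of its 3 probe sets (-0.22 to 0.19). Of the 18 probe sets of this group 4 were higher (22.2%, against 22.8% of all probe sets) and 7 lower (38.9%, against 33.3%). Among recycling Rabs 3 of 19 were higher (15.8%) and 12 lower (63.2%), with a median of -0.35. RAB15, of endocytic recycling, was higher on both probe sets, by 1.82 and 1.39, and RAB11A was lower on 2 of 3 (-0.66 and -0.35).

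Late endosomal and lysosomal Rabs had 9 of 22 probe sets higher (40.9%, against 22.8% of all) and 3 lower (13.6%, against 33.3%), with a median of 0.02. RAB12 was higher on all 3 probe sets, by 1.96 on 236019_at, 1.75 on 235059_at and 1.54 on 239891_x_at. RAB9A, which returns receptors from late endosomes to the Golgi, was lower, at -1.06. RAB7A was lower only on 223760_s_at (-0.42, adjusted p = 0.0417), with its other 6 probe sets at -0.28 to 0.04. RAB29, of the trans-Golgi network, was higher on 218699_at (0.96) and 218700_s_at (1.06) and lower on 243777_at (-0.50).

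ER and Golgi Rabs had 10 of 34 probe sets higher (29.4%, against 22.8% of all) and 11 lower (32.4%, against 33.3%). RAB2A was higher on 5 of 6 probe sets, from 1.20 on 208734_x_at to 2.45 on 208733_at, and lower on 208730_x_at (-0.60). RAB18, of the ER and lipid droplets, was higher by 2.07 on 243496_at and by 0.52 to 0.84 on 3 others, and did not pass on 224377_s_at and 239637_at (-0.03 and 0.08). RAB1A was lower on 3 of 4 probe sets (-0.72 to -0.39), RAB1B (-0.24) and RAB6A (0.28) did not pass, and RAB39A was lower (-1.08). In the last group RAB23 was higher on all 3 probe sets, from 1.0 to 2.27, and RAB40B, which joins a ubiquitin ligase, was lower on 2 of 3 (-1.48 and -0.98). Over genes, 16 of the 57 had a probe set higher in JJN3, 31 had one lower, 4 had both (RAB2A, RAB28, RAB29 and RAB35) and 14 had none. All probe sets were higher for 8 genes, RAB12, RAB15, RAB23 and RAB31 among them with several, and all were lower for 12. These counts were not taken over all genes, and 56.0% of all probe sets passed. With 1 probe set per gene, 39 of the 57 Rab genes passed, against 13632 of the 19775 genes in all.

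**Figure D5:**
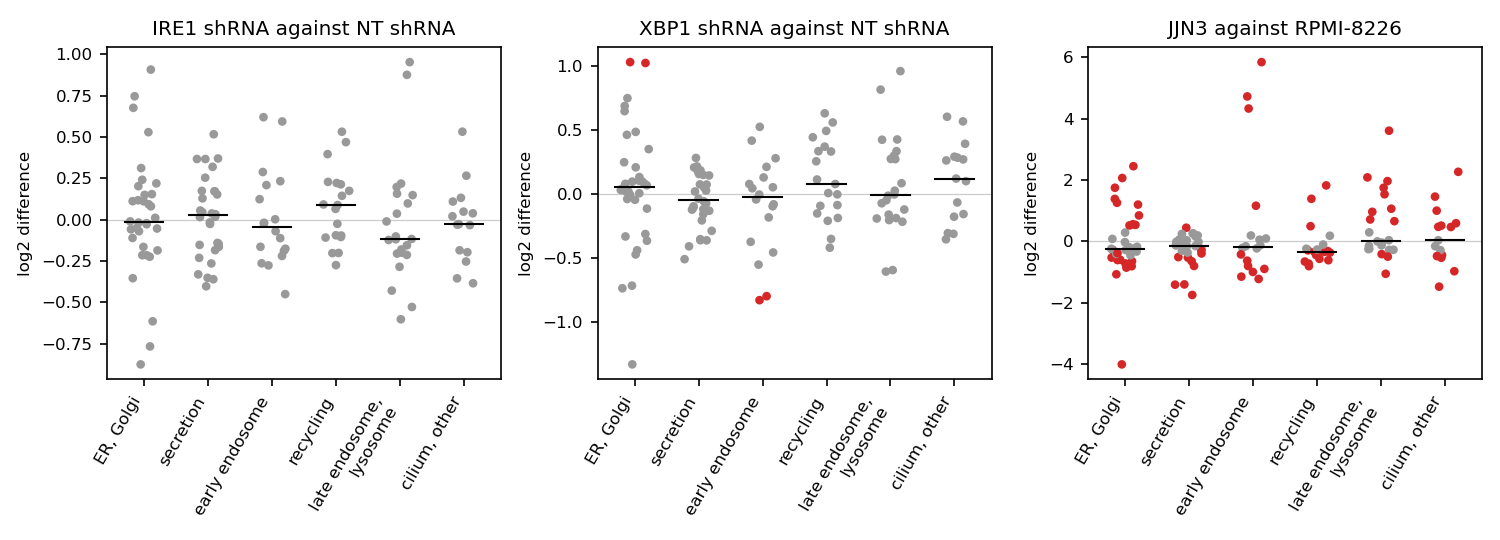
Log2 difference of each Rab probe set (vertical axis, scaled to each panel) by role of the gene, for the IRE1 and XBP1 shRNA arrays against NT shRNA and for JJN3 against RPMI-8226. Red points passed the threshold and bars are the median of a role. Between the lines the role medians run from -0.35 to 0.03.

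The proteins that act on Rabs differed between the lines on 163 of 287 probe sets (56.8%), close to the 56.0% of all probe sets. TBC1D9, of the GAP family, was lower in JJN3, with a difference of -5.01 on 212956_at, -1.23 on 212960_at and -0.47 on 237091_at. So were TBC1D30, with -4.05 on 213913_s_at, -3.22 on 213912_at and -0.42 on 215186_at, and MYO5B, a motor of RAB11 vesicles. MYO5B differed by -3.97 on 225301_s_at and -1.78 on 225299_at, while 1570141_at, at -0.02, did not pass. DENND5A, of the exchange factor family, was higher by 4.25 on 212561_at. DENND5B, of the same family, was higher by 2.78 on 228551_at and by 0.88 to 1.80 on 215058_at, 238917_s_at and 243613_at. It was lower on 236415_at (-0.57, adjusted p = 0.00343). By list, against 22.8% of all probe sets higher and 33.3% lower, 23 exchange factor probe sets of 76 were higher (30.3%) and 19 lower (25.0%). Of 72 GAP probe sets 7 were higher (9.72%) and 33 lower (45.8%), with a median of -0.27. Of 126 effector probe sets 42 were higher (33.3%) and 32 lower (25.4%), and of 13 for prenylation and recycling 2 were higher (15.4%) and 5 lower (38.5%).

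Whether the difference of silenced from control arrays, so labelled, differed between the lines was tested as an interaction. It is JJN3 minus RPMI-8226 of silenced minus control. The IRE1 and XBP1 shRNA arrays of a line again stood as its replicates, as did its controls. No probe set passed, Rab (0 of 138) or other (0 of 54613, a background of 0%), and at an unadjusted p under 0.05 in limma there were 4 Rab probe sets (2.90%) and 2856 in all (5.23%). The largest were 0.82 for RAB2A 208733_at, 0.73 for RAB18 243496_at, 0.62 for RAB4A 206272_at, of rapid recycling, and 0.61 for RAB28 234628_at, a Rab of the cilium. On the negative side they were -0.92 for RAB32 204214_s_at, -0.81 for RAB33A, -0.74 for RAB31 217763_s_at and -0.52 for RAB38. RAB33A held -0.56 and -0.70 with IRE1 and XBP1 shRNA in JJN3, against 0.38 and 0.36 with NT shRNA and uninfected, while in RPMI-8226 the same arrays held -0.02 and -0.07, against 0.27 and 0.02. Its interaction had an unadjusted p of 0.00344 and an adjusted p of 0.807. RAB1A differed by -0.36 to 0.12 in this test, RAB1B by 0.07, RAB6A by 0.16, RAB3D by 0.10 and 0.29, RAB27A by -0.35 to -0.02, RAB27B by -0.16 to 0.10, RAB5A by -0.15 to 0.35, RAB7A by -0.43 to -0.02 and RAB11A by -0.01 to 0.44. In simulated data this test found 8% of changes of 1 log2 unit and 55% of changes of 2.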

How the data were processed

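Per the submitters' processing notes the arrays were processed with RMA, which background-adjusts and quantile-normalises the signals; no software version is given. The values deposited by the authors were taken as log2, the scale RMA returns. The notes state neither the base nor a centring, but the median over the 8 arrays was 0 (within 1e-05) for all 54675 probe sets. Depth has no meaning for arrays: their number limits the precision, and signal over background is unknown.

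Groups followed the labels. limma 3.58.1 in R 4.3.3 (lmFit, eBayes, two-sided) was fitted to all 54613 probe sets other than 62 controls and adjusted over all of them, at a threshold of 0.05, in 7 comparisons. The line was the block in treatment and silencing comparisons, treatment in the line comparison. The line is the replicate number and pairs the arrays: deviations of the same line correlated at 0.897 to 0.929 over 6 treatment pairs. All probe sets were kept, since centred values allow no filter on low signal. Gene names came from the array annotation, and 138 of 138 Rab probe sets matched the RefSeq gene table (0 symbols changed). Motifs were searched in RefSeq promoter windows. The method was tested on simulated data, where changes of 1 log2 unit were recovered at 26% in XBP1 against NT shRNA, 17% in IRE1 against XBP1 shRNA and 67% between lines.

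Members, gene lists and the rule for named genes were chosen with earlier results of these data known. Named were Rab probe sets past the threshold (the 12 largest each way where there were over 24) and 10 genes fixed by role. Where under 6 passed, the 4 largest each way were named too. In the treatment and silencing comparisons these came only from probe sets with the same sign in both lines, so that agreement was selected. Alternatives left out the block, each array in turn or the other treatments, normalised again, used robust estimates, 1 probe set per gene or single-symbol probe sets, or took uninfected cells as the control.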

Additional observations from a re-analysis of the deposited data

Results flagged for a closer look

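Of 48 groups of 4 arrays looked at (24 probe sets with the largest line differences, each line apart), 3 held an array whose gap to its nearest neighbour, as a share of the group's range, was over Dixon's critical value; chance gives about 1 in 20. In RPMI-8226 the NT shRNA array was low on RAB31 217763_s_at, at -2.695, and on RAB21 239329_at, at 0.1693. The XBP1 shRNA array of RPMI-8226 was low on RAB36 211471_s_at, at 1.052.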

How the results depend on the processing

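Over the 72 named differences and 943 values under alternatives, 0 changed sign, 67 lost and 3 gained a call, and 873 kept their side of it. All losses fell on the called treatment differences of RAB2A, RAB5A and RAB8B. They ran from 8 of 14 alternatives (RAB2A 208734_x_at) to 12 of 14 (RAB5A 206113_s_at), both in XBP1 against NT shRNA. The values that kept their side include those of differences never called. Uncalled treatment and silencing differences were picked for the same sign in both lines, so a kept sign was partly fixed in advance. None of the 24 named line differences lost its call (0). In XBP1 against NT shRNA the count of 4 called Rab probe sets became 0 without the replicate block (the line), 0 after a second quantile normalisation, 1 with 1 probe set per gene, and 0 to 2 with 1 array left out. It was 3 with only those treatments fitted (2 of the 4 and RAB39B 238695_s_at) and 4 with robust estimates. With single-symbol probe sets it was 5 (all 4 and RAB2A 208731_at), and against uninfected cells 6 (1 of the 4). Over all probe sets 660 became 0 without the block, 345 after the second normalisation and 1151 against uninfected cells. In IRE1 against XBP1 shRNA the count of 3 became 0 without the replicate block, 0 after a second quantile normalisation and 0 to 2 with 1 array left out; the 1 without the RPMI-8226 array of IRE1 shRNA was none of the 3 but RAB7A 211960_s_at, lower. It was 2 with only those treatments fitted (both of RAB8B), 3 with 1 probe set per gene (2 of the 3 and RAB8A), and 4 with robust estimates or single-symbol probe sets (all 3 and RAB8A). Between the lines 1 probe set per gene gave 39 of 57 Rab genes in place of 81 probe sets, and 13632 of the 19775 genes in all. The 3 that gained a call were RAB39B 238695_s_at in XBP1 against NT shRNA, with only those treatments fitted (adjusted p = 0.0303) and against uninfected cells (0.0159), and RAB7A 211960_s_at in IRE1 against XBP1 shRNA, without the RPMI-8226 array of IRE1 shRNA (0.0426). An array left alone in its group is assumed to vary like the others. The counts of IRE1 against NT shRNA, NT shRNA against uninfected, silencing and the interaction were 0 under each alternative run. The cause of these changes was not tested.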
